A study of Mus musculus with 4 samples.

Results

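The IL-1 family was examined as 10 genes, Il1a, Il1b, Il1rn, Il1f9, Il18, Il18bp, Il1r1, Il1r2, Il18r1 and Il18rap, chosen by name from the 31053 genes of the count tables, and each was found in all 4 libraries. CD45+ cells that excluded DAPI were sorted from the skins of uninoculated C57BL/6 animals (control skins, 2 libraries) and from skin tumors (2 libraries), and RNA was counted per cell as unique molecular identifiers (UMIs) by droplet sequencing of 3′ ends. The tumors had grown for about 2 weeks from 2323 cells injected subcutaneously into C57BL/6 mice of both sexes that were 8 to 10 weeks old. 2323 is a single line from a graft of a tumor of the ktiKPP mouse, so both tumors came from the same line, and the hosts were immunocompetent. The age of the control mice is not given in the sources used here. The study's methods name 2 tumors and 2 skins but do not say how the libraries map to animals, so p-values measure only the spread between these libraries, which may be technical.

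IL-1α and IL-1β bind the receptor chain IL-1R1, which recruits the accessory chain IL-1RAP and signals through MYD88 to NF-κB. The antagonist encoded by Il1rn occupies the same receptor without signaling, and the decoy IL-1R2, encoded by Il1r2, binds IL-1 without a signaling domain. IL-18 acts on lymphoid cells through the chains encoded by Il18r1 and Il18rap and is neutralised by the binding protein of Il18bp, whereas Il1f9 encodes IL-36γ. IL-1β and IL-18 are made as precursors that caspase-1 cleaves, so an RNA level does not give the amount of active cytokine. In skin these cytokines are known from neutrophils, macrophages and epithelial cells, and the cells measured here were sorted for CD45.

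The genes lie in separate groups and at single positions (GRCm38). On chromosome 1, Il1r2 (40074079 to 40125231), Il1r1 (40225080 to 40317257), Il18r1 (40465552 to 40500854) and Il18rap (40515362 to 40551705) follow each other on the plus strand. On chromosome 2, Il1f9 (24186476 to 24193568) and Il1rn (24336853 to 24351494) lie on the plus strand. Il1a (129299610 to 129309972) and Il1b (129364570 to 129371139) lie far from them on the minus strand of the same chromosome. Il18bp lies on chromosome 7 (102014885 to 102018690, minus strand) and Il18 on chromosome 9 (50554827 to 50581840, plus strand).

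The promoters of Il1a and Il1b are shown because both cytokine genes were higher in macrophages of skin tumors. All 10 genes had an entry among the RefSeq promoters (GRCm38.p6), which run from 250 bases before to 50 bases after a transcription start. Capitals mark TATAAA (in 13.6% of the promoters of all genes), TGANTCA, the letters bound by AP-1 (7.81%), and TTNNGNAA, a loose form of the C/EBP motif (40.7%), each searched on both strands. The sequences are those of chr2:129309923-129310222 and chr2:129371090-129371389, both read from the minus strand.
Il1a: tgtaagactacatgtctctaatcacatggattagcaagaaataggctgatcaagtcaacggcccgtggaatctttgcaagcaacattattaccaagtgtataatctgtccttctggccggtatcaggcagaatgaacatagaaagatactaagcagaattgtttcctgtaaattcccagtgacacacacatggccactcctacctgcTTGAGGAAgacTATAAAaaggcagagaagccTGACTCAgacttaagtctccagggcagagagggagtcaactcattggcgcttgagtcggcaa
Il1b: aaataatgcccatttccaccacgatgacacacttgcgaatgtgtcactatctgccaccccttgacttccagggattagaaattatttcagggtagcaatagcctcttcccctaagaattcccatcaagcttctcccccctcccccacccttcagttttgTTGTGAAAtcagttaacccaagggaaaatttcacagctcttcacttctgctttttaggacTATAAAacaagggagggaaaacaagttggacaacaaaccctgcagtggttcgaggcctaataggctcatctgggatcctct
Both held a TATA match, at -32 in Il1a and at -31 in Il1b, and a C/EBP match, at -43 and -91. Among the 2 promoters, Il1a alone held an AP-1 match, at -12. A match of letters is a description and not a site of binding.

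After filtering, 2892 and 2994 cells of control skins and 4555 and 1954 cells of skin tumors were kept, of which 2861, 2953, 4527 and 1873 were immune cells, with a median of 10206 to 12473 UMIs per immune cell. Cells were assigned by UMIs of marker genes, without any IL-1 family gene, to 15 types that held 59.6% to 75.0% of the immune cells of a library. Cells with markers of 2 lineages were kept out of every type. They made up 7.55%, 8.77%, 0.38% and 10.6% of the immune cells of control 1, control 2, tumor 1 and tumor 2. The lineages counted were neutrophils, mast cells, lymphoid cells, and a group of macrophages, Langerhans cells, mature dendritic cells and cDC1. Markers of cDC2 and monocyte-like cells were not counted as a lineage. A lymphoid cell, neutrophil or mast cell that also carried them kept its type. Not counted as immune were 31, 41, 28 and 81 cells of control 1, control 2, tumor 1 and tumor 2. They passed a gate on keratin or fibroblast genes. Libraries shared between 1 and 7 cell barcodes. The defining markers were found in the tested types, but the gate for dendritic epidermal T cells (DETC) in tumor 1 had 6.04 Trdc UMIs per 10,000, against 21.4 and 20.4 in control skins. Langerhans cells (LC), dermal γδT cells, ILC2 and mature dendritic cells (DC) had under 10 cells in at least 1 library and were not tested between groups.

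**Figure D1:**
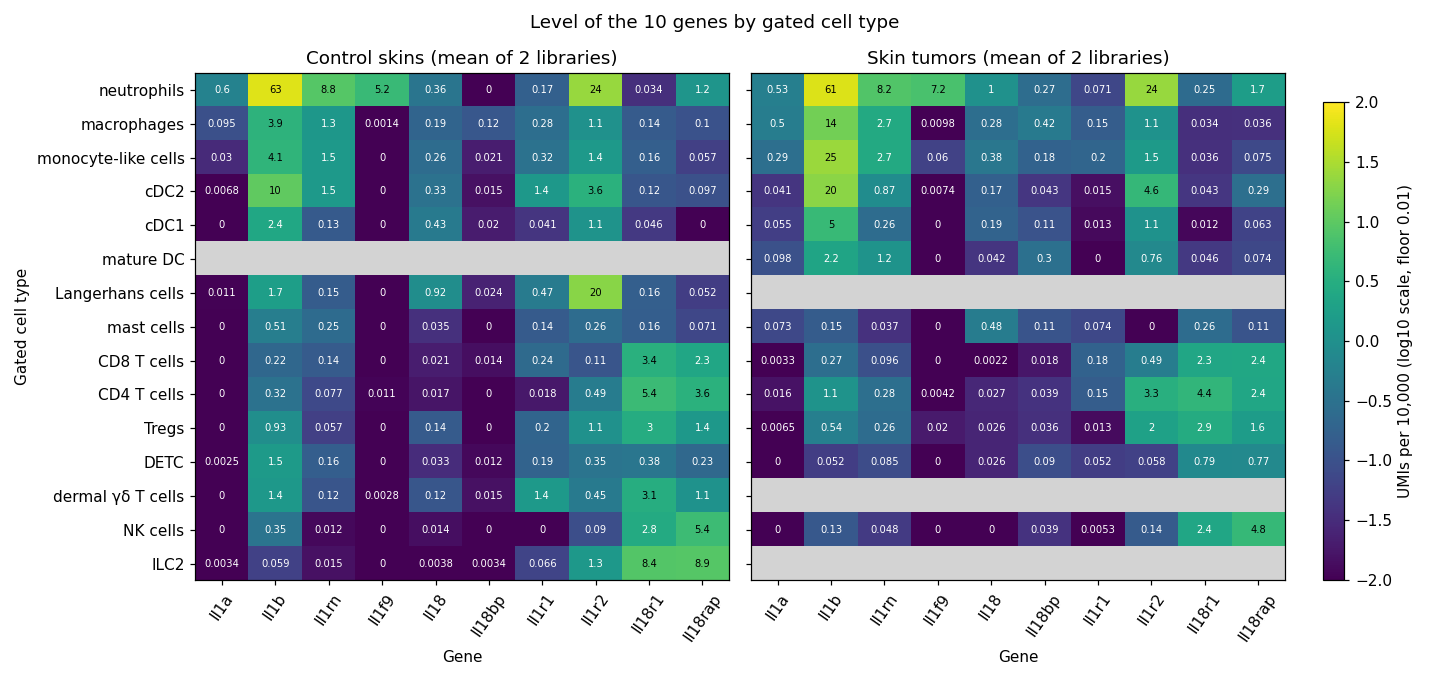
Mean level of each gene (x axis) in each gated type (y axis), as UMIs per 10,000 on a log10 color scale with the value printed, for control skins (left) and skin tumors (right). Grey rows had under 10 cells in a library. Il1b stood at 63 in neutrophils of control skins and at 3.9 in macrophages, against 61 and 14 in skin tumors.

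Il1b encodes the main secreted IL-1 agonist of myeloid cells. In neutrophils it stood at 61.3 and 64.6 UMIs per 10,000 in control skins and at 69.6 and 51.9 in skin tumors. In macrophages it stood at 3.89 and 3.92 in control skins and at 12.4 and 15.4 in skin tumors. Both tumors lay above both control skins in macrophages, and the groups overlapped in neutrophils. The tumor effect in neutrophils minus that in macrophages was -1.46 ± 0.62 on the log2 scale (edgeR interaction test, adjusted p = 0.714). The effects of these 2 types were therefore not shown to differ. Among myeloid types the order of levels in control skins ran from neutrophils to cDC2 (10.1 and 10.7), and then to macrophages, monocyte-like cells (2.87 and 5.40), cDC1 (3.59 and 1.23) and LC (1.99 and 1.46), where neighbors after cDC2 overlapped or lay within their spread. In skin tumors monocyte-like cells (19.5 and 29.8) and cDC2 (19.1 and 21.6) followed neutrophils, with overlapping values, ahead of macrophages.

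In macrophages Il1b was higher in skin tumors by 1.64 ± 0.23 on the log2 scale (SE, n = 2 against 2 libraries, edgeR quasi-likelihood test, adjusted p = 0.035). Il1a, the second IL-1R1 agonist, rose along with it. It stood at 0.105 and 0.0851 UMIs per 10,000 in control skins and at 0.442 and 0.559 in skin tumors, a difference of 2.23 ± 0.29 (adjusted p = 0.030). The Il1a values of control skins came from 13 and 30 UMIs, of which a single cell held 53.8% and 36.7%. Those of skin tumors came from 1736 and 752 UMIs, with 3.51% and 4.26% in a single cell. These 2 of the 9 members tested were called in macrophages, where 0.952% of all 11969 genes were called. Without control replicate 1 the adjusted p was 0.214 for Il1b and 0.157 for Il1a, and without control replicate 2 it was 0.264 for both, while the differences stayed between 1.63 and 2.35. Control 1 held 67 macrophages and control 2 held 213, against 1952 and 648 in skin tumors.

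The other 7 members tested in macrophages were not called by edgeR, and DESeq2 called 1 of them, Il18bp (adjusted p = 0.017). Il1rn, the antagonist, stood at 1.38 and 1.22 in control skins and at 1.97 and 3.40 in skin tumors (0.86 ± 0.31, adjusted p = 0.274). Il18bp stood at 0.113 and 0.131 against 0.556 and 0.292 (1.55 ± 0.34, adjusted p = 0.098). For both genes the tumors lay above the control skins without passing the edgeR test. Il18 stood at 0.170 and 0.216 against 0.337 and 0.227, with a 95% interval of the difference from -0.34 to 0.95 on the log2 scale. The receptor genes had negative differences and were not called by edgeR. These were -2.29 ± 0.77 for Il18r1 (adjusted p = 0.241) and -1.79 ± 0.49 for Il18rap (adjusted p = 0.162). For Il1r1 the difference was -1.11 ± 0.42 (adjusted p = 0.309) and for Il1r2 -0.12 ± 0.42 (adjusted p = 0.945).

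The Il1b difference in macrophages was seen over most of the cells. The median macrophage had 0 Il1b UMIs in both control skins, and 4.55 and 6.23 per 10,000 in skin tumors. Above 10 per 10,000 were 11.9% and 10.8% of the macrophages of control skins, and 34.6% and 39.7% of those of skin tumors. After thinning of each cell to 1000 UMIs, an Il1b UMI was found in 14.9% and 13.1% against 43.8% and 48.6% of macrophages. In ILC2 of control skins, which are not known to make IL-1β, the thinned share was 0.676% and 0% (0 of 130 cells, which allows a share of up to 2.31%), at a median of 9576 and 10205 UMIs per cell against 16985 and 14630 in macrophages. NK cells of skin tumors, at a median of 8784 and 7849 UMIs per cell against 19069 and 19428 in macrophages, had a thinned share of 0% (0 of 98 cells, which allows up to 3.06%) and 3.39%. Over lymphoid types of control skins the mean thinned share ran from 0% (CD4 T and NK cells) to 2.77% (dermal γδT cells). Their mean level ran from 0.0589 UMIs per 10,000 in ILC2 to 1.52 in DETC. In skin tumors the mean thinned share ran from 0% in DETC to 3.86% in Tregs, over lymphoid types with at least 10 cells. In control skins 5 cells held 60.4% and 42.0% of the macrophage Il1b UMIs, against 4.13% and 6.27% in skin tumors. These shares depend on the number of macrophages, 67 and 213 in control skins against 1952 and 648. The top 10% of macrophages held 73.8% and 82.4% of the Il1b UMIs in control skins, against 50.9% and 46.7% in skin tumors.

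**Figure D2:**
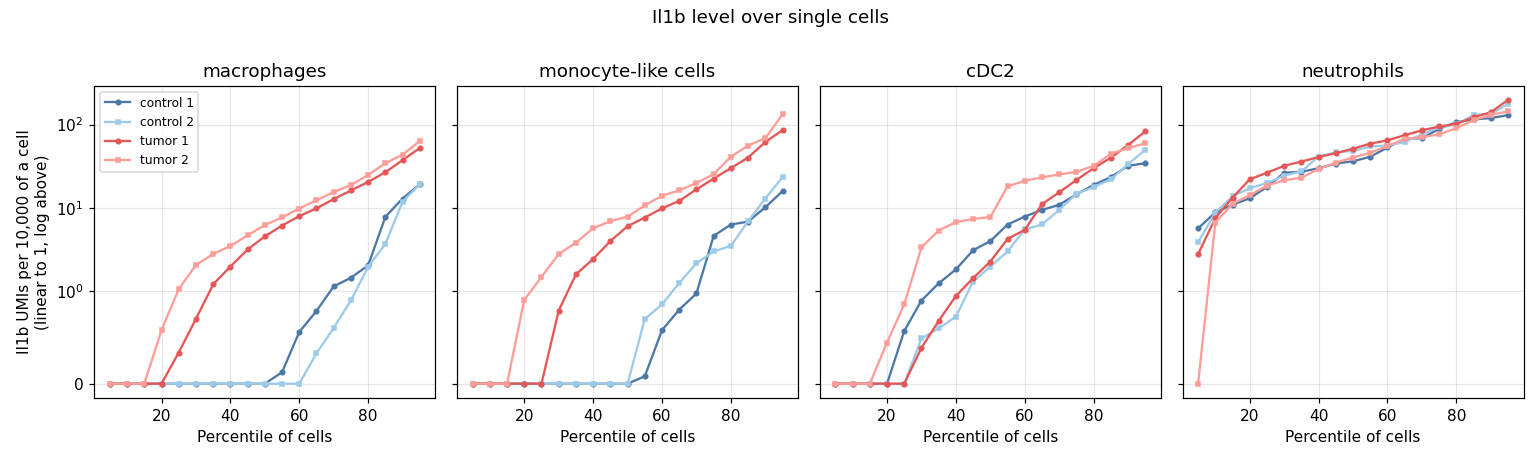
Il1b UMIs per 10,000 of a single cell (y axis, linear to 1 and logarithmic above) at each percentile of cells (x axis) in 4 gated types, with a line for each library. In macrophages and monocyte-like cells both tumor lines lie above both control lines from the middle percentiles on, with macrophage medians of 4.55 and 6.23 against 0 and 0, and in neutrophils the lines cross.

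Other genes of neutrophils were counted in macrophages as a partial gauge of neutrophil RNA in their droplets. The 6 neutrophil markers summed to 0.445 and 0.621 UMIs per 10,000 in macrophages of control skins and to 0.717 and 0.821 in those of skin tumors, with 3, 1, 1 and 0 of the 6 genes at 0. The same 6 genes set the neutrophil gate, and cells that passed both gates were kept out of macrophages. A low sum was therefore partly fixed in advance, and the Il1f9 values share this limit. Il1f9, which lay mostly in neutrophils, stood at 0 and 0.00284 in macrophages of control skins and at 0.00407 and 0.0156 in those of skin tumors. The sum of 11 early response genes, which also react to tissue digestion, was 78.1 and 76.8 in macrophages of control skins and 88.3 and 87.4 in those of skin tumors, with 0 of the 11 called in either direction.

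Cells with an Il1a UMI made up 7.46% and 5.63% of macrophages in control skins against 22.3% and 35.3% in skin tumors at full depth. After thinning to 1000 UMIs these shares were 1.49% and 0.469% against 3.43% and 5.86%, and the counting interval of control 1, from 0.04% to 8.04%, covered both tumors. No Il1a UMI was found in NK cells of any library (0 of 98 and 0 of 59 cells in skin tumors, which allows up to 3.06% and 5.08%). In tumor 1 macrophages with an Il1a UMI had 13.8 Il1b UMIs per 10,000 and those without had 11.9. In tumor 2 the order was the other way round, at 14.2 and 16.3. In monocyte-like cells the 21 and 20 cells with an Il1a UMI had 43.9 and 61.4 Il1b UMIs per 10,000, against 17.9 and 23.9 in the other cells.

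Monocyte-like cells, gated on Ly6c2, Plac8 or Ccr2 with low C1q, had an Il1b difference of 2.47 ± 0.37 (adjusted p = 0.080). None of their 9 members tested was called by edgeR, where 0.187% of 8576 genes were called. DESeq2 called 1 member, Il1b (adjusted p = 1.0e-10). Fits with 1 tumor left out took the lone tumor to vary like the control skins, and no call is drawn from them. In cDC2 the Il1b difference was 0.75 ± 0.18 (adjusted p = 0.058). For Il1b in cDC2 no call is drawn from the fits with 1 tumor left out either. Early response genes summed to 57.1 and 68.3 against 114 and 72.8 in monocyte-like cells, with 0 of 11 called, and to 40.4 and 44.0 against 59.9 and 108 in cDC2, with 3 called higher, and their part in the Il1b values was not tested. In cDC1, Il1b stood at 3.59 and 1.23 against 4.8 and 5.16 (0.93 ± 0.45, adjusted p = 0.318), and 0 of 4 members were called, where 2.11% of all genes were.

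In neutrophils 0 of 7 members were called by edgeR, where 0.0% of 3459 genes were called, 192 genes had an unadjusted p under 0.05 and DESeq2 called 4 genes but no member. The interval of the Il1b difference ran from -0.57 to 0.40 on the log2 scale. Il1rn stood at 11.5 and 6.08 UMIs per 10,000 against 7.26 and 9.24, with overlap. Il1f9, an agonist of the IL-36 receptor, stood at 4.56 and 5.77 against 6.97 and 7.42 (0.43 ± 0.25). Neutrophils held 59.4%, 90.9%, 85.2% and 60% of all Il1f9 UMIs of control 1, control 2, tumor 1 and tumor 2. Il18 was 0.240 and 0.478 against 1.13 and 0.967 from 2 and 14 UMIs in control skins (1.34 ± 0.48, adjusted p = 0.837).

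**Figure D3:**
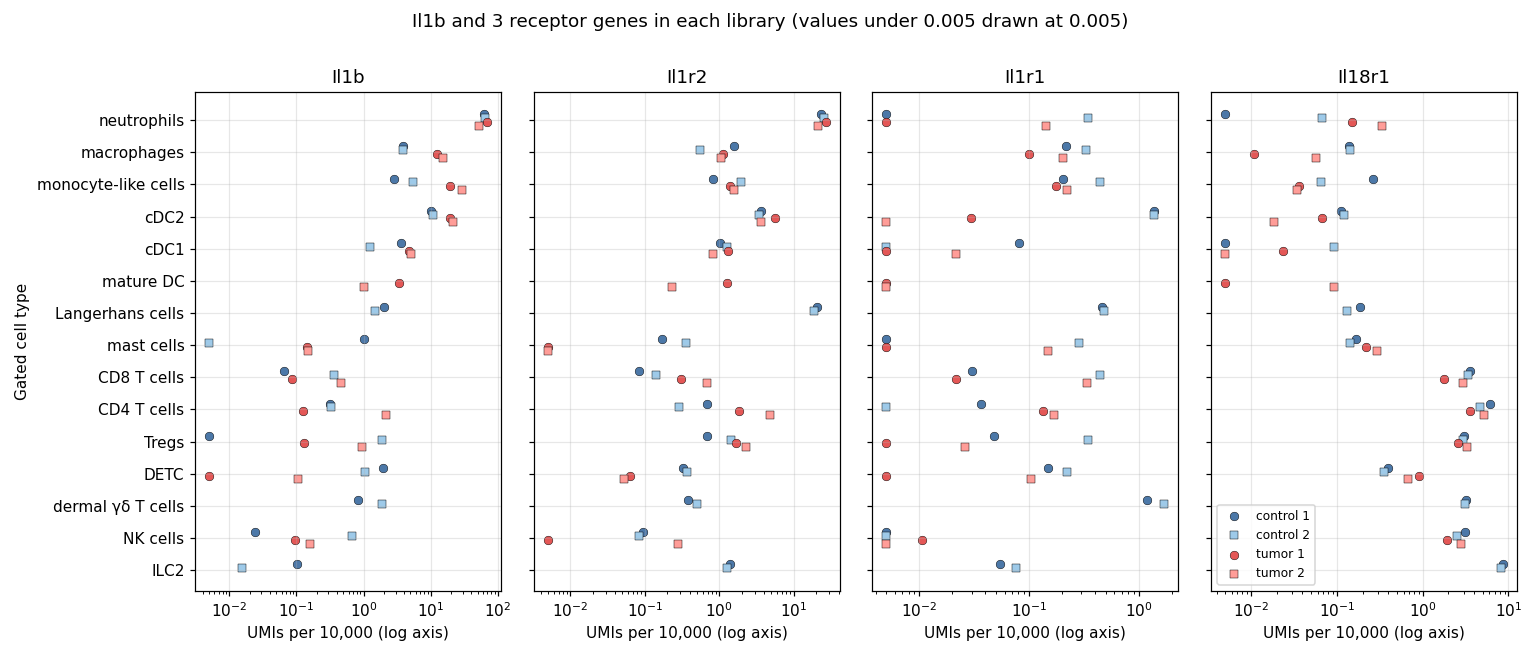
UMIs per 10,000 (x axis, logarithmic) of Il1b, Il1r2, Il1r1 and Il18r1 in each gated type (y axis), with 1 point for each library that had at least 10 cells of the type and values under 0.005 drawn at 0.005. Il1r1 in cDC2 lay at 1.38 and 1.37 in control skins and at 0.0297 and 0 in skin tumors.

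Il1r1 encodes the signaling receptor of IL-1. In cDC2 it stood at 1.38 and 1.37 UMIs per 10,000 in control skins, from 184 and 226 UMIs. In skin tumors it stood at 0.0297 and 0, from 4 and 0 UMIs, and 0 UMIs of tumor 2 allow up to 0.0564. The groups did not overlap, and the fitted difference fell by 6.19 ± 0.46 on the log2 scale (adjusted p = 0.0051). Because one tumor was at 0, the size of the fitted difference depends on the prior count. Of the 7 members tested in cDC2, Il1r1 alone was called, where 5.73% of all 8131 genes were called. An Il1r1 UMI was found in 46.9% and 44.4% of cDC2 of control skins and in 3.61% and 0% of those of skin tumors (0 of 32 cells in tumor 2, which allows up to 9.38%), at median depths of 20158, 16807, 16303 and 15808 UMIs per cell. One cell held 37.0% of the Il1r1 UMIs of cDC2 in control 1, and 11.5% in control 2. The call was kept in each alternative run with all 4 libraries. Fits with 1 library left out leave a lone library in a group, so no support is drawn from them. Over all 12 alternatives the fitted difference ranged from -10.36 to -5.75.

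The tumor effect on Il1r1 was lower in cDC2 than in macrophages by 4.93 ± 0.65 on the log2 scale (interaction test with library as a block, adjusted p = 0.016, where 0.745% of 9266 genes were called). In macrophages Il1r1 itself stood at 0.219 and 0.332 against 0.0995 and 0.202 (-1.11 ± 0.42, adjusted p = 0.309). Mature DC, which were too few to test, had 21 and 13 Il1r1 UMIs in 9 and 6 cells of control skins and 0 in the 28 and 10 cells of skin tumors. The cells in the cDC2 gate also differed in other genes. Lyz2 stood at 38.3 and 43.2 UMIs per 10,000 in cDC2 of control skins and at 2.73 and 19.7 in those of skin tumors, and the 5 monocyte markers together at 42.4 and 46.8 against 8.02 and 23.2, with 0, 0, 0 and 1 of the 5 at 0. Lyz2 made up most of that sum in all libraries but tumor 1. The monocyte marker Plac8 moved the other way, at 0.323 and 0.261 against 3.50 and 0.753, and so did Flt3, a dendritic cell receptor, at 0.519 and 0.479 against 1.68 and 0.790. The gate markers Cd209a (8.12 and 8.24 against 6.23 and 3.89) and Mgl2 (8.70 and 9.58 against 5.63 and 8.35) were present in all libraries. The part of these differences in the Il1r1 result was not tested.

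Among lymphoid cells of control skins Il1r1 was highest in dermal γδT cells, at 1.18 and 1.71 UMIs per 10,000 from 214 and 244 UMIs. The mean was 0.239 in CD8 T cells (SD 0.295) and 0.196 in Tregs (SD 0.209). In each the SD exceeded the mean, so no rank is drawn from these means. Il1r1 stood at 0.147 and 0.223 in DETC and at 0.0546 and 0.0767 in ILC2. Only 8 and 3 dermal γδT cells were found in skin tumors, with 28 and 4 Il1r1 UMIs. In CD4 T cells Il1r1 came from 3 and 0 UMIs in control skins and from 16 in each tumor (2.58 ± 0.81, adjusted p = 0.110).

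Il1r2 encodes the decoy receptor. It stood at 20.8 and 18.5 UMIs per 10,000 in LC of control skins and at 23.0 and 25.8 in neutrophils, where skin tumors had 26.9 and 21.5. LC held 63.6% and 56.7% of the Il1r2 UMIs of the control libraries, and a UMI was found in 95.1% and 95.9% of LC. The 2 tumors held 1 and 5 LC, against 387 and 343 in control skins. Next in order in control skins, among types with at least 10 cells, stood cDC2, at 3.69 and 3.43. In skin tumors cDC2 had 5.61 and 3.61. They lay below neutrophils in every library, and below CD4 T cells in tumor 2.

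In CD4 T cells, gated as having no Foxp3 UMI, Il1r2 stood at 0.685 and 0.286 in control skins and at 1.87 and 4.83 in skin tumors. A Treg whose Foxp3 was not detected would fall in this gate. In the Treg gate Foxp3 stood at only 4.42 and 3.62 UMIs per 10,000 in control skins and at 2.86 and 2.69 in skin tumors. The CD4 gate also did not exclude cells with cDC2 or monocyte markers. The part of such cells in the Il1r2 values was not tested. The difference was 2.62 ± 0.55 (adjusted p = 0.035), and Il1r2 was 1 of 6 members tested and the only one called, where 6.49% of all 7771 genes were called. The adjusted p was 0.055 without control replicate 1, 0.071 without tumor replicate 2 and 0.059 with DESeq2. The share of CD4 T cells with an Il1r2 UMI after thinning was 2.67% and 0% (0 of 44 cells, which allows up to 6.82%) against 15% and 26.5%. In Tregs Il1r2 stood at 0.676 and 1.44 against 1.66 and 2.27 (0.90 ± 0.37, adjusted p = 0.346). In CD8 T cells it stood at 0.0838 and 0.144 against 0.310 and 0.677 (1.99 ± 0.52, adjusted p = 0.065). Early response genes in CD4 T cells summed to 35.0 and 26.5 UMIs per 10,000 in control skins and to 68.4 and 67.9 in skin tumors, and 3 of the 11 were called higher. Their part in the Il1r2 result was not tested. The difference in the tumor effect on Il1r2 between CD4 T cells and macrophages was 2.64 ± 0.51 (adjusted p = 0.059).

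The IL-18 receptor chains were highest in lymphoid cells of control skins. Il18r1, the ligand-binding chain, stood at 8.62 and 8.21 UMIs per 10,000 in ILC2 of control skins, above CD4 T cells (6.11 and 4.68) and CD8 T cells (3.56 and 3.34). Below these lay dermal γδT cells (3.20 and 3.09), Tregs (3.02 and 2.96) and NK cells (3.14 and 2.49). NK cells overlapped both dermal γδT cells and Tregs, which did not overlap each other. Il18rap, the accessory chain, stood at 7.66 and 10.1 in ILC2 and at 6.19 and 4.67 in NK cells of control skins. In neutrophils Il18rap stood at 1.44 and 0.991 against 1.67 and 1.65 in skin tumors. DETC were low for both chains, at 0.393 and 0.360 for Il18r1 and at 0.212 and 0.241 for Il18rap. In skin tumors CD4 T cells had 3.52 and 5.20 Il18r1 UMIs per 10,000 (-0.38 ± 0.28, adjusted p = 0.472) and CD8 T cells 1.75 and 2.92 (-0.71 ± 0.28, adjusted p = 0.170). NK cells had 1.93 and 2.79 Il18r1 UMIs per 10,000 (interval of the difference from -0.85 to 0.25) and 3.43 and 6.12 for Il18rap (from -0.87 to 0.42).

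No member was called by edgeR in CD8 T cells (0 of 6, where 6.62% of all genes were), in NK cells (0 of 2, where 1.68% were), in Tregs (0 of 4) or in DETC (0 of 8). In Tregs 0.0% of 6798 genes were called by edgeR, with 937 at an unadjusted p under 0.05 and 94 called by DESeq2. In DETC 0.0% of 10283 genes were called by edgeR, with 1131 at an unadjusted p under 0.05. DESeq2 called 604 genes there, among them 1 member, Il1b. In mast cells, where 2.84% of 2327 genes were called, no member passed the filter on low counts. Over the 10 types with a tested member, 3 of 62 member and type pairs were called higher by edgeR and 1 lower. Among all gene and type pairs of these types 2.43% were called.

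Among types of control skins Il18 RNA was highest in LC, at 0.825 and 1.01 UMIs per 10,000, and LC held 55.6% and 51.8% of its UMIs. In skin tumors macrophages held 73.4% and 52.8%. The mean level in skin tumors was highest in neutrophils, at 1.05, among types with at least 10 cells. In cDC2 Il18 stood at 0.353 and 0.297 against 0.126 and 0.207 (-1.27 ± 0.38, adjusted p = 0.096).

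**Figure D4:**
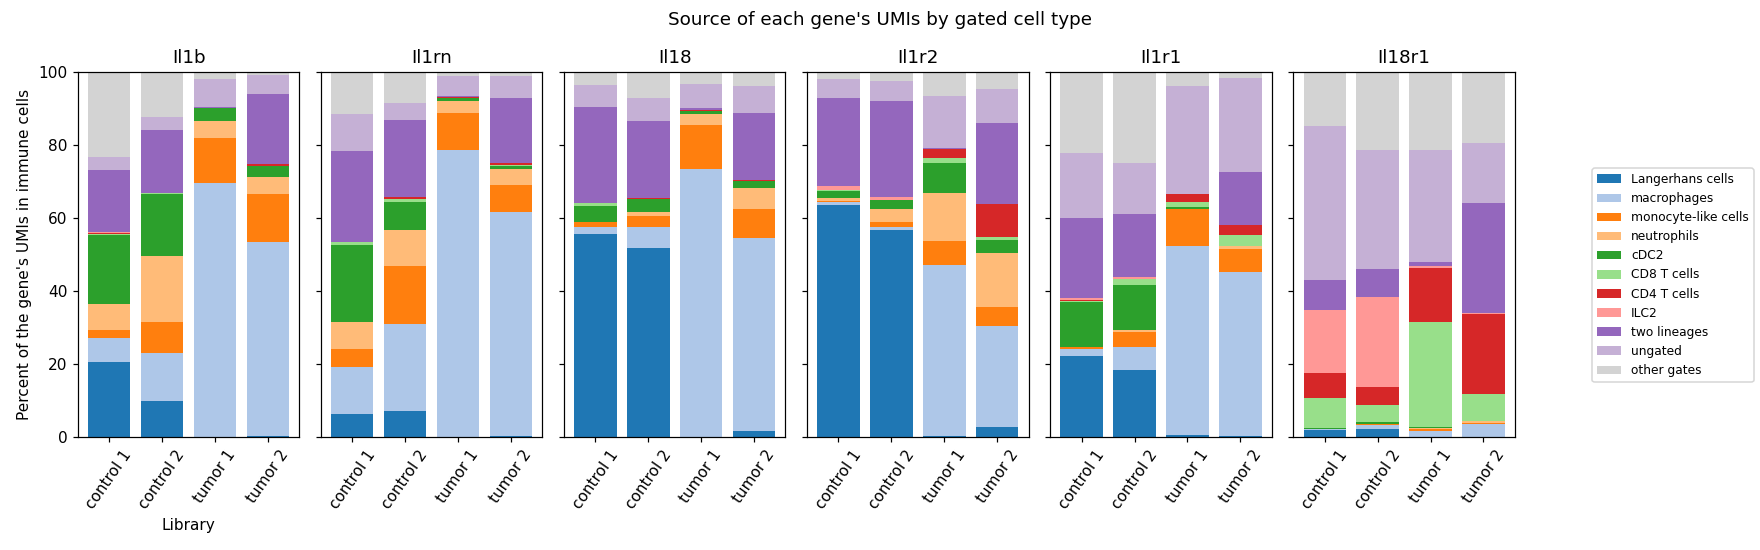
Percent of the UMIs of 6 genes in immune cells (y axis) that came from each gated type (colors), for each library (x axis). LC gave 63.6% and 56.7% of Il1r2 in control skins, and macrophages gave 69.6% and 53.4% of Il1b in skin tumors.

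Summed over all immune cells, 4 members were higher and 3 lower in skin tumors, of 10 tested by edgeR, where 27.4% of all 15968 genes were called. In such sums fewer cells of a type and less RNA per cell cannot be told apart. Il1b stood at 1.91 and 2.59 UMIs per 10,000 in control skins and at 10.8 and 13.3 in skin tumors (2.29 ± 0.24, adjusted p = 0.0068). Macrophages made up 2.34% and 7.21% of the immune cells of control skins and 43.1% and 34.6% of those of skin tumors, and gave 6.78% and 13.2% against 69.6% and 53.4% of the Il1b UMIs. Neutrophils gave 7.22% and 18.1% against 4.58% and 4.68%. Il1a (3.95 ± 0.47), Il1rn (2.22 ± 0.31) and Il18bp (3.22 ± 0.43) were also higher, with adjusted p of 0.0092, 0.013 and 0.011, and macrophages held 67.1% to 90.9% of the tumor UMIs of Il1a, 61.4% to 78.6% of Il1rn and 67.0% to 88.2% of Il18bp.

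Il1r2, Il1r1 and Il18rap were lower in the sums. Il1r2 stood at 6.44 and 5.64 UMIs per 10,000 in control skins and at 1.45 and 1.76 in skin tumors (-2.04 ± 0.17, adjusted p = 0.0046). With LC and cells of 2 lineages left out, an alternative chosen after the data were seen, the difference was 0.06 (adjusted p = 0.840). Il1r1 stood at 0.406 and 0.451 against 0.117 and 0.207 (-1.54 ± 0.31, adjusted p = 0.027) and was not called without control replicate 1 (0.056), without control replicate 2 (0.064) or without LC and cells of 2 lineages (0.052). Il18rap stood at 1.40 and 0.921 against 0.384 and 0.621 (-1.33 ± 0.32, adjusted p = 0.039) and was not called without control replicate 1 (0.124) or tumor replicate 1 (0.077). ILC2, which gave 21.6% and 35.4% of the Il18rap UMIs of control skins, numbered 148 and 130 there and 4 and 3 in skin tumors. Il18r1 (-1.46 ± 0.40, adjusted p = 0.053), Il18 (-0.53 ± 0.20, adjusted p = 0.111) and Il1f9 (1.57 ± 0.67, adjusted p = 0.142) were not called by edgeR in the sums, and DESeq2 called Il18r1 lower (adjusted p = 0.0015) and Il1f9 higher (adjusted p = 0.043).

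**Figure D5:**
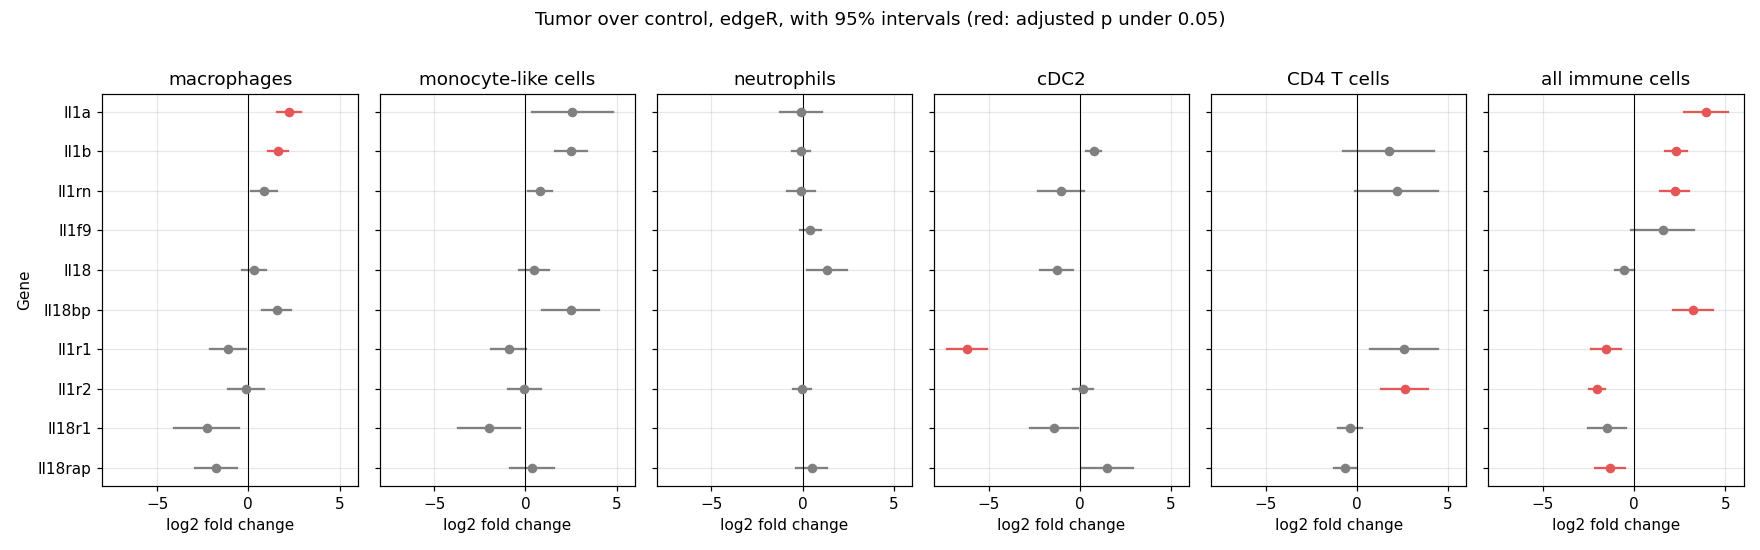
log2 fold change of tumor over control (x axis) for each member tested (y axis) in 5 gated types and in the sum over all immune cells, with 95% intervals from edgeR and red for an adjusted p under 0.05. Il1a (2.23) and Il1b (1.64) are red in macrophages, Il1r1 in cDC2, Il1r2 (2.62) in CD4 T cells and 7 members in the sum.

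The rest of the pathway was counted by 4 lists. Of 11 other IL-1 family genes, 4 were tested in macrophages and 0 were called. The shares of all genes called were 0.952% in macrophages and 2.84% in mast cells. In mast cells 2 were tested and both were called, Il1rl1, the IL-33 receptor, higher (0.846 and 3.39 against 10.8 and 8.88 UMIs per 10,000, 2.37 ± 0.54, adjusted p = 0.049) and Il1rap, the shared accessory chain, lower, from 7 and 18 UMIs against 1 and 0 (adjusted p = 0.044). In the sum over all immune cells Il1rap was called lower, at 0.921 and 0.720 against 0.241 and 0.310, and in LC of control skins it stood at 2.50 and 2.05.

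Of 22 genes for processing and release, 17 were tested in macrophages, where 0.952% of all genes were called, and 1 was called. It was P2rx7, the ATP-gated channel upstream of the NLRP3 inflammasome, at 0.802 and 0.653 against 2.14 and 2.18 UMIs per 10,000 (1.38 ± 0.20, adjusted p = 0.035). Casp1 stood at 0.437 and 0.474 against 0.466 and 0.370 (interval from -0.81 to 0.13 on the log2 scale), Nlrp3 at 1.10 and 1.32 against 1.56 and 1.84 (from -0.22 to 0.79), and Gsdmd, the pore former, at 0.372 and 0.244 against 0.411 and 0.387 (from -0.37 to 0.80). The median difference over the 17 was -0.0027, against 0.03 over all genes tested. In cDC2, where 5.73% of all genes were called, 2 of 16 were called. Both were lower, Casp4 (-1.20 ± 0.24, adjusted p = 0.039) and Mefv (-1.14 ± 0.21, adjusted p = 0.033). In CD4 T cells 11 were tested, and P2rx7 was called higher and Serpinb1a lower, where 6.49% of all genes were called. In the sum over all immune cells 6 of 18 were called higher, among them P2rx7, and 3 lower, where 27.4% of all genes were called.

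Of 22 signaling genes, all 22 were tested in macrophages and 0 were called by edgeR, with a median of -0.02. Nfkbiz, an inducible regulator of NF-κB, was called higher in CD4 T cells (1.56 and 1.32 against 2.76 and 3.68, 1.08 ± 0.24, adjusted p = 0.044), 1 of 20 tested there. Tnfaip3 was called lower in CD8 T cells, 1 of 21 tested there. The shares of all genes called were 6.49% in CD4 T cells and 6.62% in CD8 T cells. In the sum over all immune cells 3 of the 22 were called higher and 3 lower, where 27.4% of all genes were called. Of 10 inflammatory genes driven by NF-κB, 9 were tested in macrophages, where 0.952% of all genes were called. Nos2, the inducible nitric oxide synthase, was called higher there (3.81 ± 0.58, adjusted p = 0.040). It had 4 and 2 UMIs in control skins, where the macrophage sums held 1235063 and 3524593 UMIs. In skin tumors it had 823 and 307 UMIs, where the sums held 39302676 and 13461407. Tnf (-0.46 ± 0.18) and Cxcl2 (-1.09 ± 0.41) were not called in macrophages. In cDC2 Ccl4 was higher (1.52 ± 0.22, adjusted p = 0.022) and Cxcl2, a neutrophil attractant, was lower, at 14.6 and 11.6 against 1.92 and 5.25 UMIs per 10,000 (-2.10 ± 0.45, adjusted p = 0.044). Ccl4 was also called higher in CD4 T cells (1 of 5 tested) and in mast cells (1 of 4), and Ptgs2 in cDC1 (1 of 4). Beside these, 5.73% of all genes were called in cDC2, 6.49% in CD4 T cells, 2.84% in mast cells and 2.11% in cDC1. In the sum over all immune cells 3 of the 10 were called higher and 0 lower, where 27.4% of all genes were called.

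The genes whose pattern was most like a member were named by Pearson correlation of log2(CPM + 1) over 46 sums of a type and library with at least 20 cells, among 14700 genes. These sums share libraries, and the values are a description. The 3 most alike genes were Lcn2, Ankrd22 and Wfdc21 for Il1f9 (0.96 to 0.97), Slc11a1, Slc7a11 and Thbs1 for Il1rn (0.90 to 0.91) and Plbd1, Tgm2 and Igsf6 for Il1b (0.89 to 0.90). They were Fcgr4, Prdx5 and 1200007C13Rik for Il1a (0.84 to 0.86), Spi1, Alox5ap and Lrrc25 for Il18 (0.85 to 0.86) and Rab11fip1, Gm16894 and Alcam for Il1r2 (0.81 to 0.83). For the IL-18 receptor chains and the binding protein they were Ets1, Gata3 and Faah for Il18r1 (0.92 to 0.95), D16Ertd472e, Tecpr1 and Cdk17 for Il18rap (0.87 to 0.89) and Gm4951, P2rx7 and 4930599N23Rik for Il18bp (0.73 to 0.74). The values of Il1r1 were the lowest of the 10 members, with Zfp703, Eif4e and Fcrls (0.62 to 0.65).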

How the data were processed

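The data were UMI counts per gene and cell of 4 libraries of CD45+ cells. The authors made these counts with Cell Ranger on mm10 and deposited them unnormalized. The submitters' processing notes name version 7.1.0 and the file headers 7.0.1. The study's filters were applied (100 or more genes, 1000 or more UMIs, a mitochondrial share up to 15%, log10 genes divided by log10 UMIs 0.8 or more), and doublets were removed by Scrublet score (scanpy 1.11.5), 1% per 1000 cells, in all libraries. The libraries held 34893543 to 73904272 UMIs. Cells were gated by UMIs of markers. The thresholds for mature DC and ILC2 were revised after marker values had been seen.

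Counts were summed by type and library where every library had at least 10 cells, and tested with edgeR 4.0.16 (TMM, filterByExpr, quasi-likelihood test, two-sided, Benjamini-Hochberg adjustment over all genes of a type, threshold 0.05). SE was taken as |log2 fold change| divided by √F. An exact permutation test of 2 against 2 libraries cannot go below 0.333 and was not used. Fits were tested on simulated data. Intervals of shares are Clopper-Pearson at 95%, floors are 3 counts, and both cover counting error only. All 10 members were described in every type, and lists were counted whole. The members and lists were chosen with earlier results of these data known. Alternatives were DESeq2 1.42.0 (size factors or Wald test), no filter, a replicate block, each library left out, no doublet removal, 10% mitochondrial UMIs, no cycling cells and a stricter gate. The full genotype of the mouse behind the tumor line is not reported here.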

Additional observations from a re-analysis of the deposited data

Results flagged for a closer look

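Member differences in the tumor effect were tested in each other type with enough cells, against macrophages with the library as a block. Of these tests 2 passed. For Il1r1 the effect in cDC2 was lower than in macrophages by -4.93 on the log2 scale (edgeR, adjusted p = 0.016). There were 4 and 0 UMIs in cDC2 of the skin tumors, and 0.745% of 9266 genes were called in that comparison. For Il1b the effect in the DETC gate was lower than in macrophages by -6.64 (adjusted p = 0.012). The share of all genes called in the DETC comparison is not given here. In that gate Il1b had 1260 and 864 UMIs in 527 and 652 cells of control skins, of which 5 cells held 58.3% and 44.8%, and 0 and 2 UMIs in 19 and 22 cells of skin tumors. Within DETC alone edgeR did not call the difference (adjusted p = 0.166), while DESeq2 did (-4.87, adjusted p = 0.0011). Trdc was low in the gate in tumor 1. Groups of 2 libraries were too small for a test of outlying samples.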

How the results depend on the processing

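Of the member and type pairs, 3 were called higher and 1 lower, where 2.43% of all gene and type pairs of these 10 types were called. Without the filter on low counts these were 17 and 9 (4.50% of all), with the replicate block 6 and 2 (2.52%), with a stricter gate 5 and 1 (2.78%), and with the DESeq2 Wald test 4 and 2 (3.55%). With 1 library left out, between 1 and 9 were called higher and between 1 and 9 lower, where 1.95% to 9.04% of all were. Over all immune cells 4 were called higher in each library left out, and between 1 and 4 lower. The lone library of a group was then taken to vary like the other group. Replicate numbers are shared by the groups, but the differences between replicates 1 and 2 of controls and tumors correlated at 0.01 over 11527 genes, so the numbers were not taken as pairs. With the block Il18rap over all immune cells lost its call (adjusted p = 0.064). Without LC and cells of 2 lineages, Il1r2 over all immune cells changed from -2.04 to 0.059 and Il18 from -0.53 to 0.94 on the log2 scale. Il1r1 in cDC2 and Il1a, Il1b, Il1rn and Il18bp over all immune cells kept their calls in each alternative run with all 4 libraries. With 1 library left out, a kept call is not taken as support. Il1a and Il1b in macrophages lost theirs when either control library was left out (adjusted p from 0.157 to 0.264). The causes were not tested. With 2 libraries a group and 14 to 67 cells of some types in control 1, small differences of low genes were not detectable.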
